A study of Mus musculus with 8 samples.

Results

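The 37 genes described here encode the machinery with which a neuron stores transmitter in vesicles, fuses these with the membrane and retrieves them. They are the rows of the deposited count table whose symbol is on a list of synaptic vesicle, SNARE and active zone genes. All 37 listed symbols matched 1 row each, of 54532 rows in all. The rows come from RNA of L3-L5 dorsal root ganglia (DRG) of C57BL/6 mice. All mice of both groups had osteoarthritis from monosodium iodoacetate (MIA) injected into a joint, a compound that blocks glycolysis and kills cartilage cells. Mice of the MIA_Acu group were also needled by hand at the acupuncture point ST36, on the lower leg, each day for 7 days, and mice of the MIA group received no treatment. The submitters write of 3 mice a group, 4 libraries of each group were analysed, and the labels do not say which library comes from which mouse. Healthy and sham-needled mice were not analysed here, and age and sex are not given in the labels.

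Transmitter vesicles are tethered near the membrane, docked and primed at the active zone, and fused when calcium binds a sensor on the vesicle and lets SNARE proteins of vesicle and plasma membrane zip together. Sensory neurons of the DRG make these proteins in the cell body and send them along the axon to terminals in the spinal cord and the periphery, so the transcripts measured in the ganglion serve synapses that lie elsewhere. Several of the genes are also used for secretion in other cells. The comparison asked whether release genes differ in level after acupuncture, both as a share of all ganglion RNA and relative to Rbfox3 and Uchl1. These encode NeuN and a ubiquitin hydrolase, which are general markers of neurons.

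Each group had 4 libraries, numbered 1, 2, 3 and 5 in MIA_Acu and 1, 2, 4 and 5 in MIA, with 32892804 to 40627041 counts each. Values are listed in that order of libraries throughout. The column numbered MIA_Acu 3 and that numbered MIA 4 match no sample title, while the titles hold an MIA 3 and an MIA_Acu 4, so the numbers 3 and 4 stand crossed between the groups. Both columns were used under the group in their own name. Results are also given for the other 6, called the matched libraries, and after a swap of MIA_Acu 3 and MIA 4 between the groups. The neurons' own markers were present in every library, with Avil (advillin) at 579.6, 454, 477 and 461 CPM in MIA_Acu, against 726, 755, 580.2 and 693 CPM in MIA. All members passed the filter on low counts, so none was left out. Levels are CPM, counts scaled to library size, and a difference was called at an adjusted p under 0.05 in edgeR.

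Release genes took a smaller share of the RNA in MIA_Acu ganglia. Summed over the 37 members, the level was 10118, 8789.7, 9138 and 9233 CPM in MIA_Acu, against 11714, 13088, 10396 and 11998 CPM in MIA. The MIA_Acu libraries all lay below the MIA libraries, with MIA_Acu 1 at the top of its group and MIA 4 at the bottom of its own. In a bulk ganglion, fewer neurons, less of these transcripts per neuron and more RNA from other cells cannot be told apart. Of the members, 36 had a log2 fold change below 0 and 1 (Unc13b) above it, against 47.1% of all 18971 genes tested below 0. The median was -0.34 for the members and 0.018 for all genes tested.

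No single member passed the threshold in the 8 libraries, where edgeR called 0% of genes. The lowest adjusted p of 0.0881 was shared by 11 members. An unadjusted p under 0.05 was reached by 28 members, each of them lower in MIA_Acu, against 10.6% of all genes tested. For 17 members every MIA_Acu library lay below every MIA library, as did 5.91% of all genes tested. The other tools divided: DESeq2 called 25 members lower (4.79% of all genes) and limma voom with sample weights 24 (6.06%), while voom without weights called 0.

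In the 6 matched libraries 36 members were below 0, against 50.3% of all genes tested, with a median log2 fold change of -0.41. Of the 37 members, 21 were called lower there, against 4.14% of all genes tested. For these 6 libraries, fell and rose stand for called lower and called higher at an adjusted p under 0.05. The other 16 did not pass. This count moved with single libraries: 0 members passed without MIA_Acu 2 or without MIA_Acu 5, where 0% of all genes were called lower, and 27 passed without MIA_Acu 1, where 6.78% were. It was 10 without MIA 1, 7 without MIA 2 and 8 without MIA 5, where 1.17%, 0.68% and 1.05% of all genes were called lower. Leaving MIA 4 alone out of the 8 libraries gave 20 members called lower (3.45% of all genes). With MIA_Acu 3 and MIA 4 exchanged between the groups, 13 members were lower at an unadjusted p under 0.05 (7.08% of all genes) and 0 were called (0.0527% of all genes).

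**Figure D1:**
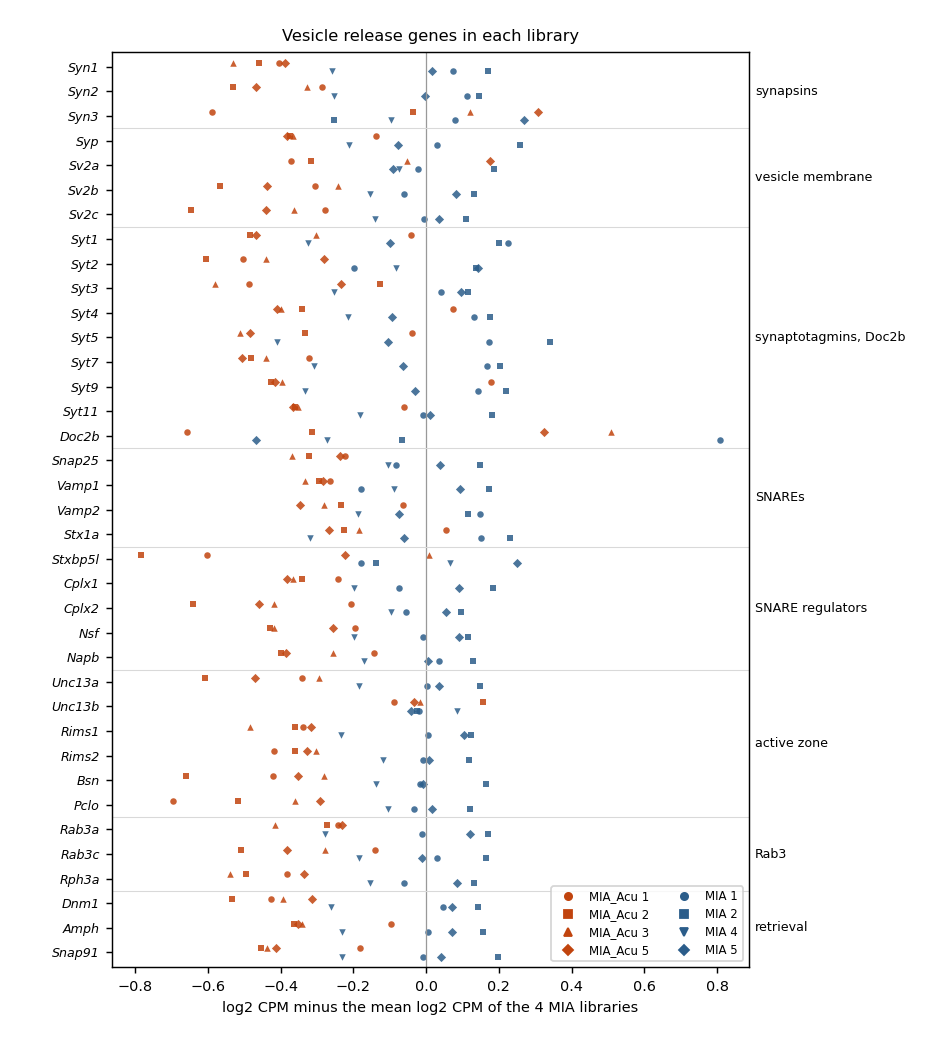
Level of each of the 37 members in each library, as log2 CPM minus the mean log2 CPM of the 4 MIA libraries (x axis), with genes grouped by role (y axis). Orange markers are MIA_Acu libraries, blue markers are MIA libraries, and shapes give library numbers. Most orange markers lie left of 0, and 17 genes show no overlap of the groups.

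Relative to their neuronal references, the same genes stood nearly level. When libraries were scaled so that Rbfox3 and Uchl1 were even, the median log2 fold change of the members was 0.026, with 15 below 0 and 22 above it and a range of -0.091 to 0.36. On this scale all genes tested shifted upward to a median of 0.37, and edgeR called 22.0% of them higher and 0.0369% lower. The 22.0% became 0% when MIA_Acu 2, MIA_Acu 3, MIA_Acu 5, MIA 1, MIA 2 or MIA 5 was left out. Of all genes, 7.91% lay below 0 and 92.1% above it. None of the members was called (lowest adjusted p = 0.0752), 1 had an unadjusted p under 0.05 (45.9% of all genes did so on the higher side), and the 95% interval covered 0 for 36 of 37. The intervals had a median margin of ±0.20 on the log2 scale. This margin is not adjusted for the number of genes and is not a limit of detection. Changes of that size, and larger ones, could thus be missed for a typical member.

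Rbfox3 itself was at 149.7, 128, 123 and 122 CPM in MIA_Acu, against 171, 192, 146 and 169.6 CPM in MIA. Uchl1 was at 1172, 1017, 971 and 961 CPM in MIA_Acu, against 1304, 1459, 1087 and 1379.8 CPM in MIA. Both thus had MIA_Acu 1 as the highest library of its group and MIA 4 as the lowest of its own, as had the sum of the release genes. Of the 37 members singly, 20 had MIA_Acu 1 as the highest of MIA_Acu and 30 had MIA 4 as the lowest of MIA. The share of all genes with these orders is not given, so the counts cannot be called particular to release genes. The log2 fold changes of the references were -0.38 (adjusted p = 0.103, SE 0.098) for Rbfox3 and -0.34 (adjusted p = 0.139, SE 0.11) for Uchl1, neither past the threshold. In the matched libraries both fell, by 0.42 and 0.40 on the log2 scale (adjusted p = 0.0308 and 0.0379).

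Members and references moved side by side over the MIA libraries, and less closely over the MIA_Acu libraries. Centred on the 8 libraries, the median log2 level of the members was -0.09, -0.25, -0.19 and -0.19 in MIA_Acu, against 0.19, 0.32, -0.037 and 0.21 in MIA. The mean of Rbfox3 and Uchl1 was 0.017, -0.20, -0.26 and -0.27 in MIA_Acu, against 0.19, 0.35, -0.054 and 0.22 in MIA. The MIA libraries differed between the 2 measures by at most 0.030. MIA_Acu 1 had its members 0.11 below the references, while MIA_Acu 3 and MIA_Acu 5 had them 0.073 and 0.086 above. From MIA_Acu 2 to MIA_Acu 3 and MIA_Acu 5 the members rose and the references fell. Over the 8 libraries the SD of a member's log2 CPM had a median of 0.24, and that of its log2 ratio to the references a median of 0.12. The ratio had the smaller SD for 32 of 37 members. These SDs include the difference between the groups, which members and references share, so they do not measure tracking within a group. No share over all genes is given for this count.

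**Figure D2:**
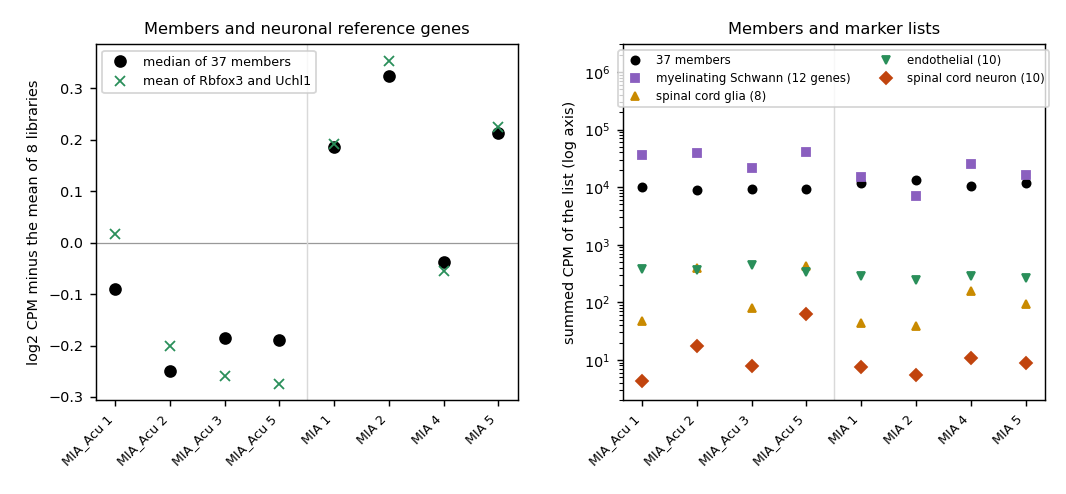
Left, the median of the 37 members (circles) and the mean of Rbfox3 and Uchl1 (crosses) in each library, as log2 CPM minus the mean of the 8 libraries. Right, summed CPM of the members and of 4 marker lists on a log axis. MIA 4 lies near the MIA_Acu libraries at left, and spinal cord neuron markers are highest in MIA_Acu 5.

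**Figure D3:**
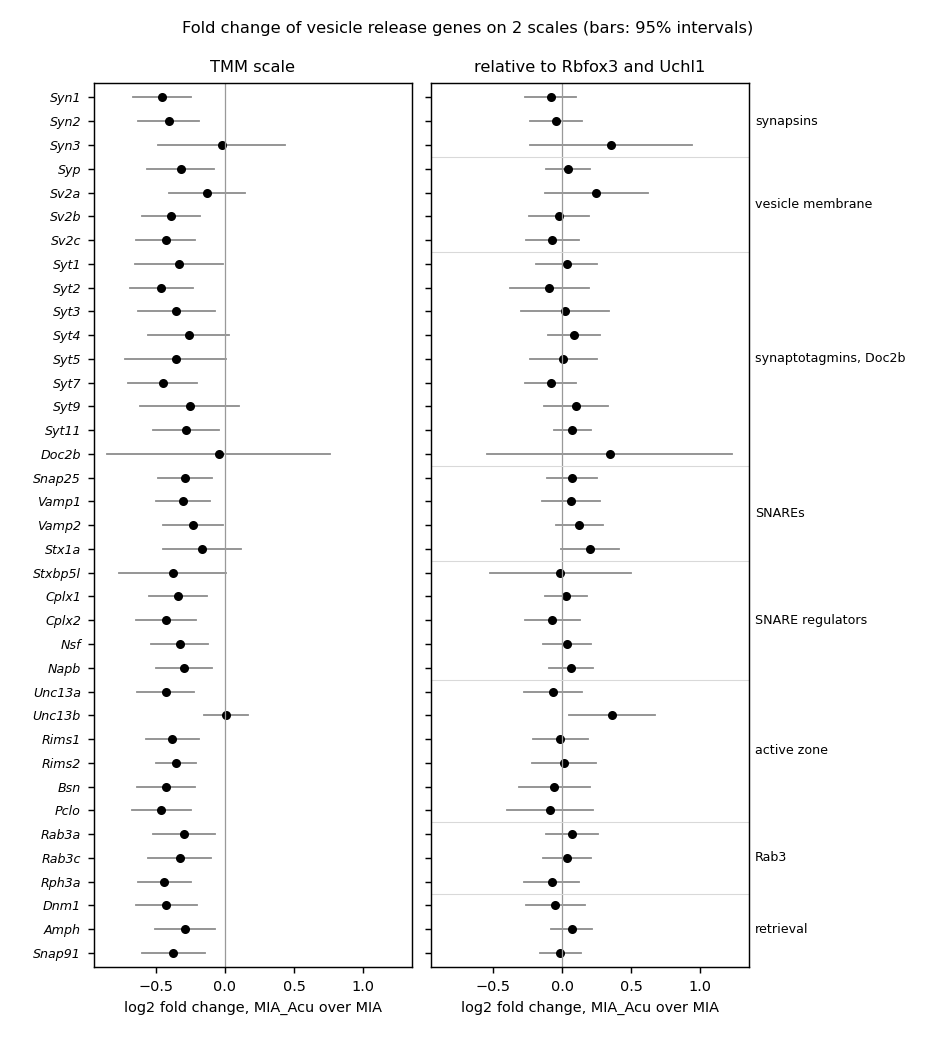
Log2 fold change of each member, MIA_Acu over MIA, with its 95% interval, on the TMM scale (left) and relative to Rbfox3 and Uchl1 (right). At left 36 of 37 points lie below 0. At right they scatter around 0, and the interval of Unc13b alone lies wholly above it.

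Promoters are shown for 3 genes, picked after their values were seen. Unc13a and Unc13b are family partners with log2 fold changes of -0.43 for Unc13a and 0.0065 for Unc13b, and Syn1, with -0.45, is the member whose window holds the RE1 part. The sequences are the 250 bases before the start of each gene from RefSeq, build GRCm38.p6, at chrX:20920919-20921168, minus strand for Syn1, chr8:71671758-71672007, minus strand for Unc13a and chr4:43058703-43058952, plus strand for Unc13b. Capitals mark TTCAGCACC (the left part of the RE1 element bound by REST, which silences neuronal genes outside neurons), TGACGTCA (the cAMP response element) and GGGCGG (the GC box), on either strand.
Syn1: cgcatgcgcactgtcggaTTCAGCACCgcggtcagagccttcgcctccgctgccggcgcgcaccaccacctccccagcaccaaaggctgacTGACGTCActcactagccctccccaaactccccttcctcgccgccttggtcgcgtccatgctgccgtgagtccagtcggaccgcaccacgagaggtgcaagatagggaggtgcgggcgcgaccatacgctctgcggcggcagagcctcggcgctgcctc
Unc13a: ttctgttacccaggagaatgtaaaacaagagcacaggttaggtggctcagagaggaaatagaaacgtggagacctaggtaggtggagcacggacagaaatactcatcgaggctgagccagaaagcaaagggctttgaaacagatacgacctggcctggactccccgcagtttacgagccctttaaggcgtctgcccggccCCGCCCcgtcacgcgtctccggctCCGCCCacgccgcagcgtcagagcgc
Unc13b: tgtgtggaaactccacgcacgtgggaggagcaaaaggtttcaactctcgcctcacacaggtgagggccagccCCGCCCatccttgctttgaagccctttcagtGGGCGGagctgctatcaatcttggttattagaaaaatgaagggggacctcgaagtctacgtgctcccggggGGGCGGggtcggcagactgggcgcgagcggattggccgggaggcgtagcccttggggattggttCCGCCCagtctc
The Syn1 window holds the RE1 part and the cAMP response element. Unc13a holds 2 GC boxes and Unc13b 4. RefSeq holds such a start for 29 of the 37 members, some with several, in 38 windows, and each window was searched over the same 250 bases before the start only. TTCAGCACC and TGACGTCA were each in 1 of the 38 windows (2.63%), that of Syn1, against 0.301% and 1.55% of 32851 windows of all genes. GGGCGG was in 55.3% of the members' windows and 32.7% of all. No motif overlapped another in the sequences shown, and these matches are letters in a window, not measured binding.

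Synapsins tether vesicles to one another and to actin in the reserve pool. Syn1 (ENSMUSG00000037217) was at 229.6, 221, 210.3 and 232 CPM in MIA_Acu, against 319.8, 342, 254 and 307 CPM in MIA. The MIA_Acu libraries spanned a narrow range below all MIA libraries. Syn1 averaged 223 ± 9.86 CPM in MIA_Acu and 306 ± 37.5 CPM in MIA (SD, n = 4 each), a log2 fold change of -0.45 (adjusted p = 0.0881, SE 0.094). Syn2 had a log2 fold change of -0.41 (adjusted p = 0.092, SE 0.098), also without overlap, and both fell in the matched libraries, by 0.51 and 0.52 on the log2 scale (adjusted p = 0.0185 each). Syn3 (ENSMUSG00000059602), the least abundant synapsin, was at 3.68, 5.4, 6.01 and 6.85 CPM in MIA_Acu, against 5.84, 4.64, 5.17 and 6.66 CPM in MIA. MIA_Acu 1 was the lowest and MIA_Acu 5 the highest of all 8 libraries, and the log2 fold change of -0.025 (adjusted p = 0.957, SE 0.21) changed sign without MIA_Acu 1 or without MIA 5. Relative to Rbfox3 and Uchl1, Syn3 had a log2 fold change of 0.35 (95% interval -0.23 to 0.94), among the highest of the members, with an interval too wide to place it.

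MIA_Acu 5 was also the library with the highest level of spinal cord markers. The summed level of 10 markers of spinal cord neurons was 4.31, 17.6, 7.7 and 61.7 CPM in MIA_Acu, against 7.43, 5.4, 10.6 and 8.83 CPM in MIA. MIA_Acu 5 stood above the other libraries, with MIA_Acu 2 next. Among them, Slc6a5, the glycine transporter of inhibitory neurons of the cord, was at 0.0571, 4.33, 0.109 and 23.7 CPM in MIA_Acu, against 0.0609, 0.104, 2.61 and 0.443 CPM in MIA. Slc32a1, which loads GABA and glycine into vesicles, was at 0 in MIA_Acu 1, MIA 1 and MIA 2. Mobp, a gene of central myelin, was at 8.02, 189, 26.3 and 172 CPM in MIA_Acu, against 2.13, 3.63, 48.3 and 35.7 CPM in MIA, so that MIA 4 was the highest MIA library for both Slc6a5 and Mobp. Without both MIA_Acu 2 and MIA_Acu 5, the members' median log2 fold change was -0.31 and all 37 were below 0, with 21 at an unadjusted p under 0.05 (5.53% of all genes were lower at it) and 0 called (0% of all genes).

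Among the vesicle membrane proteins, Syp encodes synaptophysin, an abundant partner of synaptobrevin, and the SV2 genes encode transporter-like glycoproteins that are receptors of botulinum toxin. Sv2c (ENSMUSG00000051111) was at 657, 509, 619 and 587 CPM in MIA_Acu, against 794, 859.9, 724 and 817 CPM in MIA. The groups did not overlap, MIA_Acu 2 was lowest, and the log2 fold change was -0.43 (adjusted p = 0.0881, SE 0.096). Syp (ENSMUSG00000031144) was at 266, 225, 227 and 224 CPM in MIA_Acu, against 298, 349.5, 253 and 277 CPM in MIA. Here MIA_Acu 1 lay above MIA 4, and the log2 fold change was -0.32 (adjusted p = 0.144, SE 0.11). Sv2b had -0.39 without overlap. Sv2a averaged 52 ± 9.28 CPM in MIA_Acu and 56.8 ± 5.21 CPM in MIA (SD, n = 4 each), a log2 fold change of -0.13 (adjusted p = 0.575, SE 0.12), with MIA_Acu 5 at 63.9 CPM level with the highest MIA library. In the matched libraries Sv2b and Sv2c fell, and Syp (adjusted p = 0.0634) and Sv2a (0.475) did not pass.

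Synaptotagmins carry C2 domains, and most of them sense the calcium that triggers fusion. Syt2 (ENSMUSG00000026452), a fast sensor, was at 242, 225, 253 and 282 CPM in MIA_Acu, against 299, 377, 324 and 378 CPM in MIA. All MIA_Acu libraries lay below all MIA libraries. Syt2 averaged 250.4 ± 24 CPM in MIA_Acu and 344 ± 39.5 CPM in MIA (SD, n = 4 each), a log2 fold change of -0.46 (adjusted p = 0.0881, SE 0.10). It also had the lowest value of all members relative to Rbfox3 and Uchl1, at -0.091 (95% interval -0.37 to 0.19). Syt7, a slower sensor of high affinity, had a log2 fold change of -0.45 (adjusted p = 0.0982, SE 0.11) and likewise did not overlap. These 2 fell in the matched libraries, and the other 7 of the class did not pass there.

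Syt1, the classic fast sensor of forebrain terminals, averaged 207 ± 30.7 CPM in MIA_Acu and 260.3 ± 45.9 CPM in MIA (SD, n = 4 each), and its log2 fold change was -0.33 (adjusted p = 0.216, SE 0.14). Its MIA 4 library, at 205 CPM, lay below both MIA_Acu 1 at 250.1 CPM and MIA_Acu 3 at 209 CPM. Syt11 (ENSMUSG00000068923), which does not bind calcium, was the most abundant of the class per length. It was at 1183, 961, 966 and 958 CPM in MIA_Acu, against 1226, 1399, 1087 and 1242 CPM in MIA, a log2 fold change of -0.28 (adjusted p = 0.173, SE 0.11). The MIA_Acu libraries numbered 2, 3 and 5 lay close together below MIA, and MIA_Acu 1 reached the MIA range. Syt3, Syt4, Syt5 and Syt9 had log2 fold changes of -0.35, -0.26, -0.36 and -0.26, with overlapping groups. Doc2b, a related sensor, was the scarcest member at 1.57 ± 0.567 CPM in MIA_Acu and 1.63 ± 0.715 CPM in MIA (SD, n = 4 each), and its log2 fold change of -0.043 (adjusted p = 0.957, SE 0.36) changed sign in several alternatives.

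The SNARE proteins that drive fusion are Snap25 and Stx1a on the plasma membrane and Vamp1 and Vamp2 (synaptobrevins) on the vesicle. Snap25 (ENSMUSG00000027273) had the highest level per length of all members. It was at 1200.2, 1119, 1085 and 1189 CPM in MIA_Acu, against 1323, 1551, 1302 and 1437 CPM in MIA. The groups did not overlap, and the log2 fold change was -0.29 (adjusted p = 0.124, SE 0.086). Vamp1 (ENSMUSG00000030337) was at 445, 436, 424 and 439 CPM in MIA_Acu, against 472, 602, 503 and 569.5 CPM in MIA. The MIA_Acu libraries lay within a narrow range (436 ± 8.57 CPM), and all MIA libraries were above them (537 ± 59.9 CPM, SD, n = 4 each), a log2 fold change of -0.30 (adjusted p = 0.12, SE 0.087). Vamp2 had a log2 fold change of -0.23 (adjusted p = 0.207, SE 0.098) and Stx1a of -0.16 (adjusted p = 0.474, SE 0.13), both with overlapping groups. None of the 4 SNARE genes passed in the matched libraries, where adjusted p lay between 0.064 (Snap25) and 0.188 (Stx1a). Relative to the neuronal references all 4 were above 0, from 0.063 for Vamp1 to 0.20 (95% interval -0.0088 to 0.41) for Stx1a, and none was called.

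Complexins clamp and then assist the SNARE complex, NSF and its adaptor encoded by Napb pull it apart after fusion, and Stxbp5l encodes tomosyn-2, which blocks its assembly. Cplx1 (ENSMUSG00000033615) was at 721, 673, 661 and 654 CPM in MIA_Acu, against 809, 967, 742 and 907 CPM in MIA. Cplx2 (ENSMUSG00000025867) was at 249, 184, 215 and 209 CPM in MIA_Acu, against 277, 307, 269 and 299 CPM in MIA. For both complexins every MIA_Acu library lay below every MIA library. The log2 fold changes were -0.34 (adjusted p = 0.114, SE 0.095) for Cplx1 and -0.43 (adjusted p = 0.0881, SE 0.096) for Cplx2. Nsf had -0.33 (adjusted p = 0.117, SE 0.093) and Napb -0.30 (adjusted p = 0.125, SE 0.089), with MIA 4 inside the MIA_Acu range for each. These 4 genes fell in the matched libraries, with adjusted p from 0.0328 to 0.0406. Stxbp5l was scarce and variable, averaging 18.1 ± 4.47 CPM in MIA_Acu and 23.5 ± 3.27 CPM in MIA (SD, n = 4 each), and its log2 fold change was -0.38 (adjusted p = 0.24, SE 0.17).

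Among the active zone genes the groups were apart for 5 of 6, where MIA_Acu lay wholly below MIA for 5.91% of all genes tested. RIM proteins, encoded by Rims1 and Rims2, link vesicles, calcium channels and the priming factor Munc13. Rims2 (ENSMUSG00000037386) had the smallest p-value of all members. It was at 55.6, 57.8, 60.1 and 59.1 CPM in MIA_Acu, against 73.9, 80.5, 68.4 and 74.7 CPM in MIA. Values within each group were close together, at 58.2 ± 1.97 CPM in MIA_Acu and 74.3 ± 4.97 CPM in MIA (SD, n = 4 each), and the log2 fold change was -0.35 (adjusted p = 0.0881, SE 0.065). Pclo (ENSMUSG00000061601), which encodes the scaffold piccolo, was at 118, 133, 148 and 155 CPM in MIA_Acu, against 186, 207, 177 and 192 CPM in MIA. MIA_Acu 1 was the lowest library and the log2 fold change of -0.46 (adjusted p = 0.0881, SE 0.095) was the lowest of all members. Bsn (bassoon, the partner scaffold) had -0.43 and Rims1 -0.38, and Rims1, Rims2, Bsn and Pclo all fell in the matched libraries. Relative to the references, Pclo was at -0.086 (95% interval -0.40 to 0.23).

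Munc13 proteins open syntaxin so that SNAREs can assemble. Unc13a (ENSMUSG00000034799), the neuronal form, was at 121, 101, 125 and 111 CPM in MIA_Acu, against 154, 170.0, 135 and 157 CPM in MIA. All MIA_Acu libraries were below all MIA libraries, and the log2 fold change was -0.43 (adjusted p = 0.0881, SE 0.092). Unc13b (ENSMUSG00000028456), of which a splice form is made widely outside the brain, was at 45.6, 54.1, 47.9 and 47.4 CPM in MIA_Acu, against 47.9, 47.7, 51.4 and 47.1 CPM in MIA. These 8 values overlapped almost fully, at 48.7 ± 3.69 CPM in MIA_Acu and 48.5 ± 1.96 CPM in MIA (SD, n = 4 each), a log2 fold change of 0.0065 (adjusted p = 0.967, SE 0.07). In the matched libraries Unc13a fell, by 0.54 on the log2 scale (adjusted p = 0.0185), and Unc13b had 0.037 (adjusted p = 0.813).

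On the scale of Rbfox3 and Uchl1, Unc13b had the highest log2 fold change of the members, 0.36 (95% interval 0.05 to 0.67), with an adjusted p of 0.0752. This value is close to the 0.37 of the median gene tested. In the matched libraries Unc13b was called higher on this scale (log2 fold change 0.46, adjusted p = 0.0274), the 1 member that was, where 38.2% of all genes tested were called higher and 0.0686% lower. Unc13a stayed at -0.063 (95% interval -0.27 to 0.15) in the 8 libraries.

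**Figure D4:**
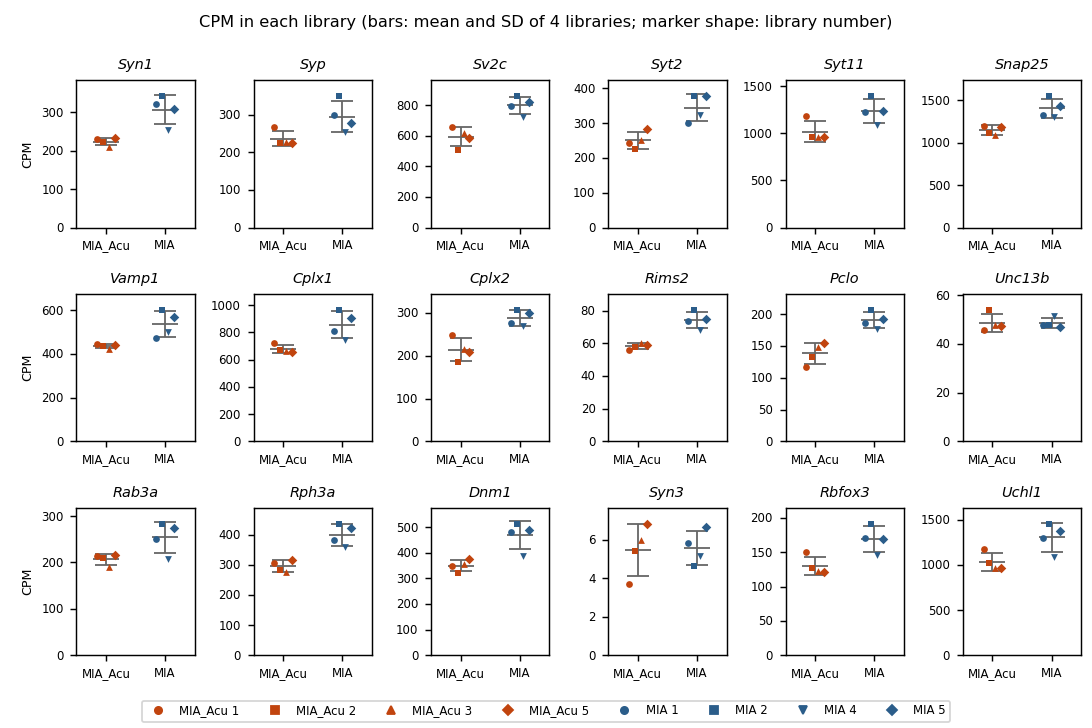
CPM of 16 members and of Rbfox3 and Uchl1 in each library, MIA_Acu left and MIA right, with the mean and SD of 4 libraries. Syn1, Sv2c, Syt2, Snap25, Vamp1, Cplx1, Cplx2, Rims2, Pclo, Rph3a and Dnm1 separate the groups, while Unc13b and Syn3 overlap.

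Rab3 GTPases sit on vesicles and bind effectors such as rabphilin, the product of Rph3a. Rph3a (ENSMUSG00000029608) was at 306, 283, 275 and 317 CPM in MIA_Acu, against 383, 437, 359 and 423 CPM in MIA. The groups did not overlap, and the log2 fold change was -0.44 (adjusted p = 0.0881, SE 0.085). Rab3a (ENSMUSG00000031840) was at 213, 209, 189 and 215 CPM in MIA_Acu, against 250.1, 284, 208 and 274 CPM in MIA. MIA 4 lay below 3 of the MIA_Acu libraries, and the log2 fold change was -0.30 (adjusted p = 0.145, SE 0.10). Rab3c had -0.33 (adjusted p = 0.13, SE 0.10). All 3 fell in the matched libraries, with adjusted p of 0.0201, 0.0285 and 0.0472.

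After fusion, dynamin 1 (Dnm1) pinches the membrane off, amphiphysin (Amph) brings dynamin to the neck, and AP180 (Snap91) assembles the clathrin coat. Dnm1 (ENSMUSG00000026825) was at 346, 322, 354 and 374 CPM in MIA_Acu, against 481, 514, 388 and 489 CPM in MIA. Every MIA_Acu library was below every MIA library, and the log2 fold change was -0.42 (adjusted p = 0.0881, SE 0.097). Snap91 had -0.38 (adjusted p = 0.109, SE 0.10) and Amph -0.29 (adjusted p = 0.144, SE 0.097), each with MIA_Acu 1 above MIA 4. These 3 genes also fell in the matched libraries, by 0.52, 0.43 and 0.35 on the log2 scale.

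Levels were compared between genes only per kb of the longest annotated transcript. Snap25 averaged 603 CPM per kb over the 8 libraries, followed by Cplx1 at 350.2, Syt11 at 225, Vamp2 at 197 and Vamp1 at 161. At the other end were Doc2b at 0.367, Syn3 at 1.38 and Unc13b at 3.3 CPM per kb. Within families Sv2c (76.5) stood above Sv2b (42.9) and Sv2a (12.5), and Unc13a (13.1) above Unc13b, on the same scale. With the median transcript length in place of the longest, 4 of these 5 stayed among the 5 highest, with Nsf in place of Vamp1. Doc2b, Syn3 and Unc13b, with the 3 lowest levels on the longest transcript, were also the members with the 3 highest log2 fold changes relative to Rbfox3 and Uchl1 in the 8 libraries. On the median transcript length Stxbp5l lay below Unc13b, at 5.86 against 9.66 CPM per kb.

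Ratios within a library compare related genes without any scaling between libraries. Among 11 pairs of related members, chosen by family after the values were seen, the log2 ratio of Unc13a to Unc13b was 1.41, 0.90, 1.39 and 1.23 in MIA_Acu, against 1.68, 1.83, 1.39 and 1.74 in MIA. MIA 4 lay inside the MIA_Acu range, and the mean difference was -0.43 (exact permutation test, two-sided, p = 0.0571, adjusted over the 11 pairs 0.629). The smallest p that 4 against 4 allows is 0.0286. For Sv2c over Sv2a the log2 ratio averaged 3.52 ± 0.29 in MIA_Acu and 3.82 ± 0.093 in MIA (SD, n = 4 each, exact permutation p = 0.114). Syt2 over Syt1 averaged 0.28 ± 0.27 in MIA_Acu and 0.41 ± 0.32 in MIA (exact permutation p = 0.429), and Vamp1 over Vamp2 0.13 ± 0.11 in MIA_Acu and 0.19 ± 0.22 in MIA (exact permutation p = 0.657). No pair passed, and for Rims1 over Rims2 the difference was -0.022.

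**Figure D5:**
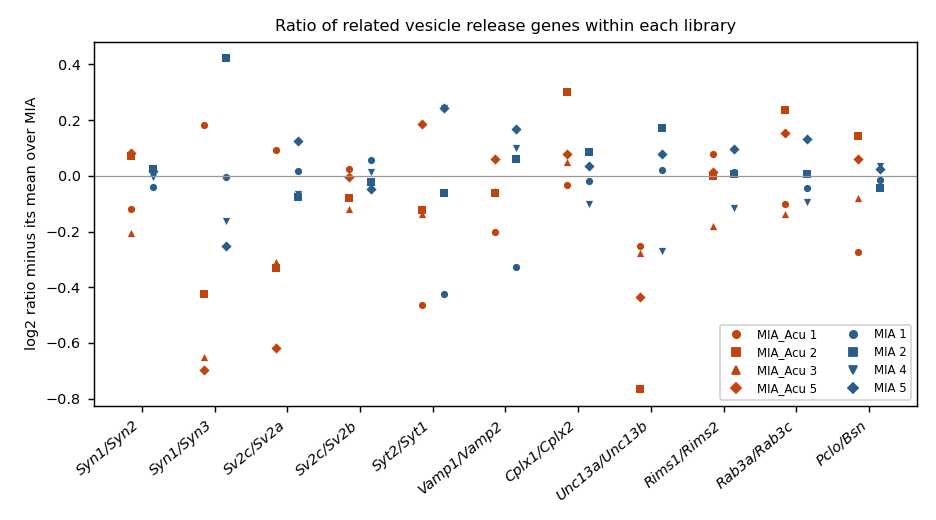
Log2 ratio of 11 pairs of related members within each library, minus its mean over MIA (y axis), with MIA_Acu in orange left of MIA in blue and shapes for library numbers. The groups overlap for every pair shown.

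Other genes of the same pathway, 92 that are not members, were lower for the most part. Of 88 tested, 68 had a log2 fold change below 0 and 20 above it, with a median of -0.21. None was called in the 8 libraries, 40 were lower and 9 higher at an unadjusted p under 0.05 (10.6% and 11.2% of all genes tested), and in the matched libraries 23 of 87 fell and 6 rose (4.14% and 6.22%). The 4 smallest p-values on the lower side belonged to Dnm3, Cacna1b (the N-type calcium channel of nerve terminals), Synj1 (which strips the clathrin coat) and Ppfia4 (a liprin scaffold). Cacna1b was at 117, 109.7, 138 and 124 CPM in MIA_Acu, against 180.2, 195, 151 and 161 CPM in MIA, with no overlap and a log2 fold change of -0.49 (adjusted p = 0.0881, SE 0.099). Dnm3, Synj1 and Ppfia4 had log2 fold changes of -0.47, -0.34 and -0.40, and all 4 fell in the matched libraries.

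On the higher side, the 4 smallest p-values were those of Vamp8, Vamp3, Stxbp3 and Sypl. These encode relatives of Vamp2, of the syntaxin partner Munc18 and of synaptophysin that serve membrane traffic in many cell types. Vamp8 was at 33.9, 38.8, 32.6 and 34.6 CPM in MIA_Acu, against 23.6, 16, 29.6 and 20.5 CPM in MIA. Vamp3 was at 70.0, 74.1, 59.4 and 68.8 CPM in MIA_Acu, against 44.3, 34.1, 60.3 and 46.1 CPM in MIA. The groups did not overlap for Vamp8, and for Vamp3 MIA 4 lay just above MIA_Acu 3. Vamp8 had a log2 fold change of 0.64 (adjusted p = 0.1, SE 0.16) and Vamp3 of 0.56 (adjusted p = 0.109, SE 0.15). Stxbp3 had 0.50 (adjusted p = 0.114, SE 0.14) and Sypl 0.46 (adjusted p = 0.117, SE 0.13). These 4 genes, with Stxbp6 and Sh3gl1, are the 6 that rose in the matched libraries. Relative to Rbfox3 and Uchl1, 15 of the 88 were called higher and 0 lower, where 22.0% of all genes tested were called higher. The 20 genes above 0 on the TMM scale include Snap23 at 0.41 (adjusted p = 0.162), the widely expressed relative of Snap25.

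Marker lists of the ganglion's cells were set beside these. None of their genes was called in the 8 libraries, where 0% of all genes were, and 47.1% of all genes tested lay below 0. Of 10 general neuronal genes, which include both references, 10 were below 0 with a median log2 fold change of -0.34, and their summed level was 4447 to 5378 CPM in MIA_Acu and 5042 to 6851 CPM in MIA. Among markers of sensory neuron types, 7 of 10 for large-diameter afferents, 6 of 6 for peptidergic and 8 of 9 for non-peptidergic nociceptors were below 0. Of 12 markers of myelinating Schwann cells, 12 were above 0 with a median of 1.05, and their summed level was 21321 to 40377 CPM in MIA_Acu and 7135 to 25604 CPM in MIA. Endothelial markers summed to 339.8 to 450.4 CPM in MIA_Acu and 240.4 to 292 CPM in MIA, and macrophage markers to 97.1 to 176 CPM in MIA_Acu and 67.6 to 115 CPM in MIA. Of 9 fibroblast markers, 9 were above 0 with a median of 0.94. They summed to 2406 to 5864 CPM in MIA_Acu and 643 to 2030 CPM in MIA. The neuronal panel thus had the same median as the release genes, and the myelinating Schwann, endothelial, macrophage and fibroblast lists lay on the other side of 0. The 7 satellite glia genes were mixed, with 2 below 0 and 5 above it and a median of 0.14. Their summed level was 3642 to 4340 CPM in MIA_Acu and 3490 to 4001 CPM in MIA. For 8 markers of spinal cord glia the sum was 47.2 to 434 CPM in MIA_Acu and 39.5 to 158 CPM in MIA. For 9 skeletal muscle genes it was 387 to 5599 CPM in MIA_Acu and 36.8 to 3605 CPM in MIA. These lists also lay above 0, with 7 of 7 glia markers tested (median 1.31) and 9 of 9 muscle genes (median 0.88). The part of these cell types and tissues in the lower share of release genes was not tested.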

How the data were processed

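Raw counts per Ensembl gene, with gene symbols, were deposited by the authors in 1 table of 8 libraries. FastQC, Trimmomatic and build GRCm39 (mm39) are named in the submitters' processing notes. The aligner, the counting tool, its strand setting and the annotation were not given in the sources used here. Reads of overlapping or near-identical genes may therefore be shared. The kit was NEBNext Ultra RNA after poly(A) selection, per the labels' protocols.

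Each column took the group in its name. The labels do not tie libraries to animals, so a p-value here reflects variation among libraries, possibly technical. No 2 libraries of a group looked like repeat deposits of one (chi-square per degree of freedom 17.9 or more).

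Genes were filtered with filterByExpr (minimum count 10, minimum total 15) and tested with the quasi-likelihood test of edgeR 4.0.16 in R 4.3.3, with TMM scaling, no covariate besides group, and p-values adjusted by Benjamini-Hochberg over all genes. SE derive from the F statistic. For values relative to neurons, library sizes were scaled to the geometric mean of the counts of Rbfox3 and Uchl1 in place of TMM. The fits were also run on simulated counts, with changes larger than those of the members and with the reference genes free of noise. That run does not cover noise in the references or changes as small as those of the members. Transcript lengths are from GENCODE M21 (GRCm38), used for length only. Alternatives were DESeq2 1.42.0, limma 3.58.1 voom, other filters, size factors and references, and libraries left out. The members, lists and tests were chosen with earlier results of these data known. Named members were, in each role, that of smallest p and that of highest level per kb. Added to these were any whose mean was higher in MIA_Acu and the 2 extremes in each direction relative to the references. Unc13a was named outside this rule, as the family partner of Unc13b. Other members are given by fold, some with means or single values. 1 gene of the marker lists is not reported here, and the sums leave it out.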

Additional observations from a re-analysis of the deposited data

Results flagged for a closer look

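In 7 of 74 sets of 4 libraries (37 members in each group), 1 library stood apart from the other 3. The gap to its neighbour was above Dixon's 95% critical value for the group's range, which chance passes in about 1 in 20 single sets. The 74 sets come from the same 8 libraries and are not independent, and no share over all genes is given for this rule. Of these, 6 are high values of MIA_Acu 1: Syp at 266 CPM, Syt4 at 356 CPM, Syt9 at 130 CPM, Syt11 at 1180 CPM, Amph at 147 CPM and Snap91 at 243 CPM. Rbfox3 and Uchl1 were also highest in MIA_Acu 1 among the MIA_Acu libraries, at 149.7 and 1172 CPM. The other set is Unc13b in MIA, where MIA 4 was high at 51.4 CPM.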

How the results depend on the processing

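The count of members called lower, 0 in the 8 libraries, was 0 to 20 with single libraries left out (20 without MIA 4), 21 in the 6 matched libraries, 15 there with the replicate number as a block (2.49% of all genes), 25 with DESeq2 and 24 with weighted voom. It stayed at 0 with size factors, either other filter, plain voom, the exchange of libraries 3 and 4 and without both MIA_Acu 2 and MIA_Acu 5 (an added alternative). The 28 members lower at an unadjusted p under 0.05 became 13 with the exchange. The members' median log2 fold change ranged from -0.41 to -0.26 over the 18 alternatives. Among the 6 matched libraries, leaving out 1 more (added) gave 0 to 27 members called (0% to 6.78% of all genes). Relative to Rbfox3 and Uchl1, 0 to 1 members were called with single libraries left out and 1 in the matched libraries, in each case Unc13b, where 35.7% of all genes were called higher without MIA_Acu 1, 45.7% without MIA 4 and 38.2% in the matched libraries. Of the 37 members, 15 lay below 0 on this scale, and 10 to 18 with single libraries left out, so signs near 0 turned for several. Rbfox3 alone, Uchl1 alone or 10 neuronal genes as reference called 0, with medians of 0.044, 0.0071 and 0.0085. On the TMM scale signs turned with single libraries left out for Syn3 (-0.15 to 0.13), Doc2b (-0.25 to 0.30) and Unc13b (-0.047 to 0.043), and on the scale of the references for Pclo (-0.18 to 0.037) among the 4 members followed there singly. They also turned for Doc2b in voom (0.00085) and for Unc13b without MIA_Acu 2 and 5 (-0.057). The labels state no pairing, so the numbers were not taken as pairs. Deviations from group means of libraries with the same number correlated at 0.068, 0.27 and 0.16 (numbers 1, 2 and 5). Those of libraries with different numbers correlated at -0.24 to 0.14, and these few values cannot decide whether the numbers are pairs. The cause of these changes was not tested. At this depth the direction of Doc2b, the scarcest member, was not detectable.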
